A study of Homo sapiens with 6 samples.

Results

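The genes described here are the core and linker histone genes of the human HIST1 to HIST4 clusters as read by poly-A selected RNA sequencing. The members are the protein-coding rows of the deposited count table whose symbol begins with HIST, a cluster digit and H, a rule of name and annotation that uses no measured value, although it was set with earlier results of these data known. They number 58 of 30949 rows, with 46 in the HIST1 cluster on chromosome 6, 8 in HIST2, 3 in HIST3 and 1 in HIST4. By protein, 6 encode linker histone H1, 12 encode H2A, 17 encode H2B, 10 encode H3 and 13 encode H4.

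The cells were wild-type astrocytes derived from the established human line WTC11, an induced pluripotent line, so every library comes from the same line. They were kept as floating aggregates within alginate capsules. ITC capsules, of which 3 were sequenced, received complement C1q together with the cytokines interleukin 1 alpha and tumor necrosis factor alpha, and vehicle capsules, also 3, received the solvent alone. RNA was taken 48 hours later, and 3 batches of capsules were each divided between the treatments. No source used here says that a shared replicate number marks a shared batch. ITC libraries held 17808993 to 19327421 counts and vehicle libraries 17398921 to 29941685. All 10 listed astrocyte markers had counts, here summed over the 3 libraries of a treatment without scaling for depth. GFAP had 5421 in ITC and 8709 in vehicle, S100B 10051 in ITC and 30045 in vehicle, and CD44 61534 in ITC and 35541 in vehicle. The test used below, on scaled counts, called 3 of the 10 higher in ITC and 6 lower, and did not call GFAP. Over all tested genes it called 20.4% higher and 19% lower.

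Cluster histone genes supply the histones that package newly copied DNA, and most of their transcription is tied to S phase. Their messenger RNAs are unusual in animals, because the 3′ end is normally cut after a short stem-loop and carries no poly(A) tail. SLBP, the stem-loop binding protein, holds this end through processing, export and translation, and the transcripts are degraded when replication stops. Some cluster genes can also use a poly(A) signal farther downstream, which gives a tailed transcript that has been described in differentiated cells. Poly-A selection keeps tailed transcripts and removes most of those that end at the stem-loop, so the values below are of whatever cluster histone RNA passed that selection, not of all of it.

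The stem-loop is the element that separates these ends, so it was searched in the annotated transcripts of GENCODE 29 (GRCh38) as the 16-letter pattern GGCNCTTNTNAGNGCC, on the transcript strand. It was found in 30 of the 58 members (51.7%) and in 48 of all 58676 annotated genes (0.0818%). The following windows, 5′ to 3′, are from members with a called change that are annotated past it. Capitals mark the letters that match the pattern.
HIST2H2BE: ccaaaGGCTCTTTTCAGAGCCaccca
HIST1H2BC: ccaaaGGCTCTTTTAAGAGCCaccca
HIST1H3E: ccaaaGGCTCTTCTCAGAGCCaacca
HIST1H4I: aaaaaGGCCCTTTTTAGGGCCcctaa
HIST3H2A: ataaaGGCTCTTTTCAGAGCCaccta
The stem of HIST1H4I differs from that of the other genes shown and has the letters that the other H4 members with the pattern share. Only transcripts with the pattern were measured from it. Among the 30 members with the pattern, 21 have such a transcript that runs on for 100 or more bases, and in 9 it ends sooner. HIST1H2BD, among these 9, also has a transcript without the pattern. AATAAA or ATTAAA lies in the last 40 bases of a transcript in 20 of the 30. HIST2H2BE continues for 1729 bases after the stem-loop and HIST1H3E for 1862, while HIST1H4I continues for 212 and HIST1H2BC for 116. In 23 other members the listed length is the coding sequence alone, so reads beyond the stop codon had no place to be counted. In GRCh38 coordinates as the table lists them, HIST1H2BK, a coding row without an intron, is at chromosome 6, 27146418 to 27146798 (minus strand), and HIST1H1C, another such row, at 26055787 to 26056428 (minus). HIST1H4I is at 27138588 to 27139881 (plus) on the same chromosome, and on chromosome 1 HIST2H2BE is at 149884459 to 149886652 (minus) and HIST3H2A at 228456979 to 228457873 (minus), each with 1 unspliced transcript that extends past the coding sequence. The other 5 members are annotated beyond the coding sequence without a match to the pattern.

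Cluster histone transcripts made up 0.0396%, 0.0344% and 0.0380% of all counts in the ITC libraries, against 0.0255%, 0.0270% and 0.0300% in the vehicle libraries. Their summed level, in CPM (counts scaled to a common library total, here with TMM, a normalisation that takes most genes to be alike between libraries), was 447.7, 369.1 and 399.5 CPM in ITC, against 238.6, 245.8 and 277.6 CPM in vehicle. Every ITC library lay above every vehicle library, and the ratio of the means was 1.60 (405 ± 39.6 CPM in ITC and 254 ± 20.8 CPM in vehicle, SD, n = 3 each). The sum rested on few genes. HIST1H2BK held 18.9% of the members' counts, and with HIST1H2AC and HIST2H2BE 49.3%. The 27 members with enough counts to be tested held 98.2%, and the 31 left out had between 2 and 60 counts each over all 6 libraries.

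Of the 27 tested members, 10 (37%) were called higher in ITC, beside 20.4% of all 16756 tested genes, and 1 (HIST3H2A) was called lower, beside 19% of all genes. Called means a Benjamini-Hochberg adjusted p under 0.05 over all tested genes in edgeR's quasi-likelihood test. In either direction 40.7% of the members were called, close to the 39.4% of all genes, so that the share of members that changed was that of the table as a whole. Groups did not overlap for 12 of 27 members (44.4%), beside 50.1% of all genes. The log2 fold change was above 0 for 22 of 27 members, with a median of 0.54 and a range of −1.04 to 2.39, beside a median of −0.01 over all tested genes. Library scaling moved both medians together: with library size alone they were 0.31 for the members and −0.24 for all genes. The calls over all genes were then 2282 higher and 4804 lower, against 3423 higher and 3176 lower with TMM, and those of the members 8 higher and 2 lower. The members that passed the filter on low counts did so partly through their level in the higher group, and the 31 that did not pass have no fold change.

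**Figure D1:**
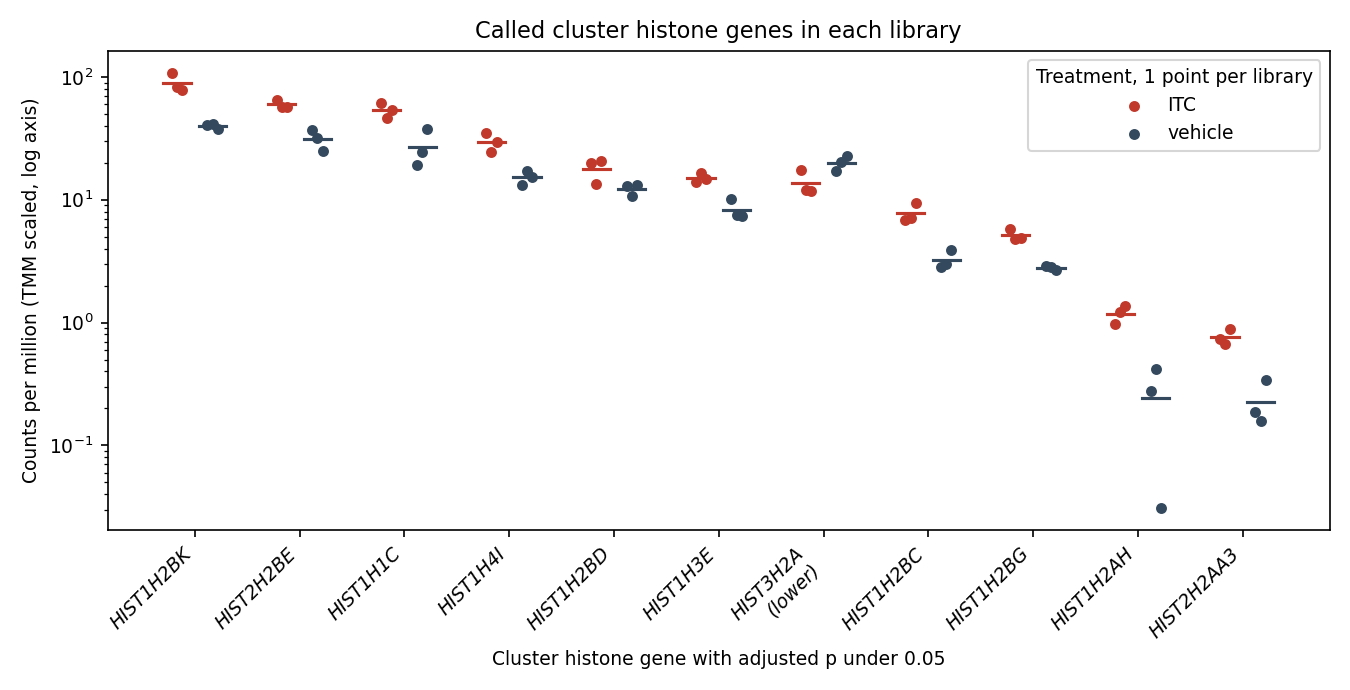
Level of each called cluster histone gene in every library, as TMM-scaled CPM on a log axis, with 1 point per library, a line at the mean, and ITC left of vehicle for each gene. The groups are apart for the 10 genes called higher in ITC, and HIST3H2A, called lower, has ITC points between 11.7 and 17.5 and vehicle points between 17.1 and 22.6.

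The H2B genes, whose protein pairs with H2A in the nucleosome core, were the best represented class, with 11 of 17 tested and 5 of these called higher in ITC (45.5%, beside 20.4% of all tested genes). Their summed level was 196 ± 23.5 CPM in ITC and 103 ± 6.06 CPM in vehicle (SD, n = 3 each), a ratio of 1.90. HIST1H2BK, the most abundant member, had 109, 82.3 and 78.7 CPM in ITC and 40.7, 41.3 and 38.0 CPM in vehicle. Every ITC library was above every vehicle library, and the log2 fold change was 1.17 ± 0.16 (SE, edgeR adjusted p = 4.48e-05). HIST2H2BE, from the HIST2 cluster on chromosome 1, had 65.1, 57.1 and 56.7 CPM in ITC and 36.9, 31.7 and 24.8 CPM in vehicle. Its log2 fold change was 0.94 ± 0.17 (SE, edgeR adjusted p = 0.000468), and the vehicle libraries were more spread than the ITC libraries.

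Of the less abundant H2B genes, HIST1H2BC had 6.86, 7.16 and 9.44 CPM in ITC and 2.83, 2.99 and 3.87 CPM in vehicle, a log2 fold change of 1.27 ± 0.25 (SE, edgeR adjusted p = 0.000862). HIST1H2BG had 5.77, 4.83 and 4.90 CPM in ITC and 2.88, 2.83 and 2.66 CPM in vehicle, with 0.89 ± 0.25 (SE, edgeR adjusted p = 0.0116). In both genes the ITC libraries stood clear of the vehicle libraries. HIST1H2BD was nearer the threshold, with 19.8, 13.4 and 20.5 CPM in ITC and 12.9, 10.8 and 13.2 CPM in vehicle, and a log2 fold change of 0.54 ± 0.20 (SE, edgeR adjusted p = 0.0415). Its second ITC library was barely above the highest vehicle library, and the call was lost in 8 of 12 alternative analyses, with adjusted p up to 0.219.

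The other 6 tested H2B genes were not called. HIST1H2BN, the most abundant of them, had 6.55, 3.67 and 6.14 CPM in ITC and 3.90, 5.76 and 5.60 CPM in vehicle, so the libraries of each treatment were interleaved. HIST1H2BJ, HIST1H2BN, HIST1H2BE and HIST2H2BF had log2 fold changes between 0.08 and 0.15, and the sign of each changed with the scaling. HIST3H2BB was at 0.85 ± 0.48 (SE, edgeR adjusted p = 0.173), with groups that did not overlap at under 2 CPM, and HIST1H2BH was at −0.37 ± 0.50 (SE). Within the class, therefore, measured fold changes lay between −0.37 and 1.27, and whether the members differ from each other was not tested.

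**Figure D2:**
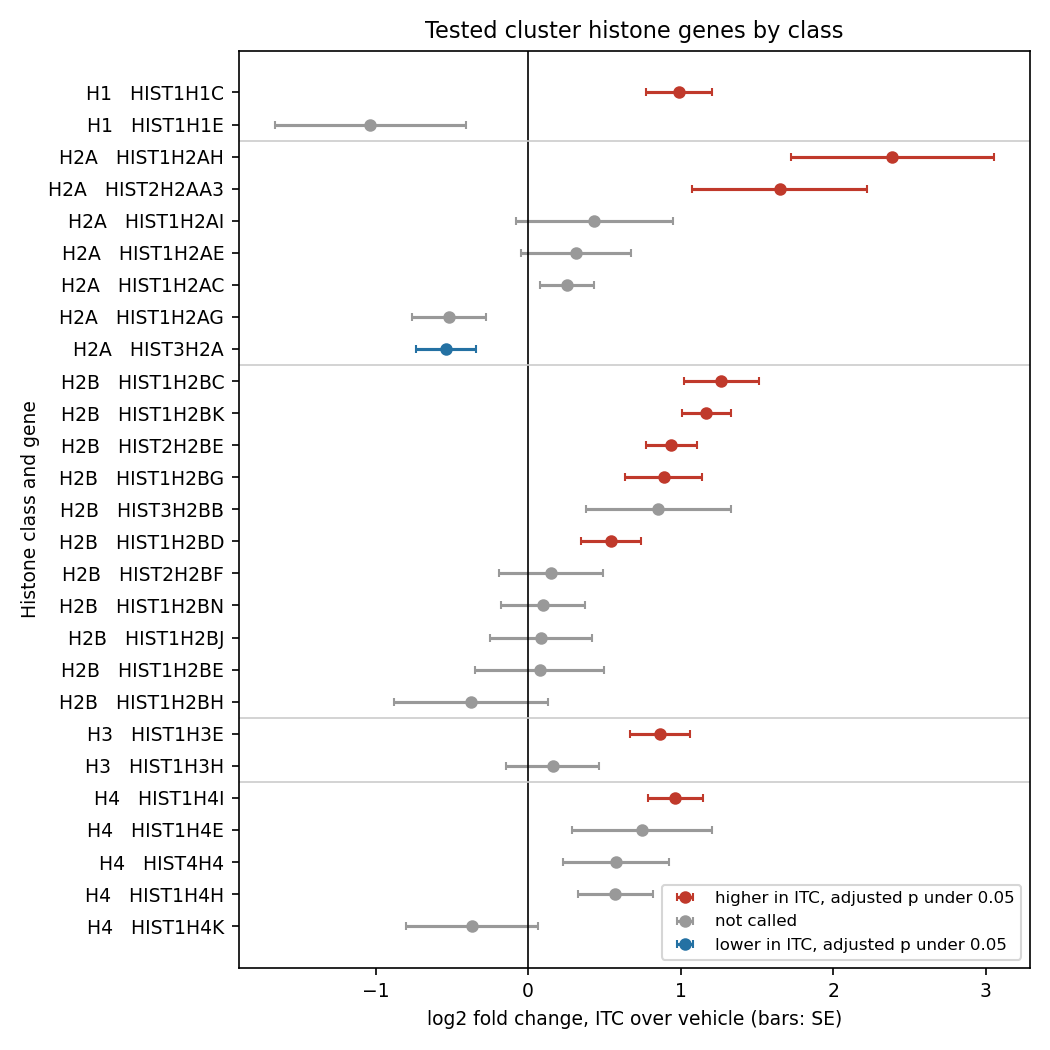
Log2 fold change of ITC over vehicle for the 27 tested cluster histone genes, grouped by histone class and ordered by size within a class. Points are edgeR estimates with SE bars, red where called higher, blue where called lower and grey where not called. H2B holds 5 of the 10 genes called higher, and HIST1H2AH, at 2.39, has the widest bar of the called genes.

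The H2A genes had summed levels that overlapped between the treatments. Of 12 members 7 were tested, with 2 called higher and 1 lower in ITC, and the summed level was 84.2 ± 6.72 CPM in ITC and 79.9 ± 13.9 CPM in vehicle (SD, n = 3 each), a ratio of 1.05. In either direction 42.9% of the tested H2A members were called, beside 39.4% of all tested genes. HIST1H2AC, which holds most of the H2A counts, had 59.5, 53.6 and 62.6 CPM in ITC and 41.8, 42.6 and 62.6 CPM in vehicle. Vehicle library 3 was level with the highest ITC library, and the gene was not called, at 0.26 ± 0.18 (SE, edgeR adjusted p = 0.270). Without that library the log2 fold change was 0.43 with an edgeR adjusted p of 0.0454. That fit was picked because of the library's value in this gene, so it does not decide the call.

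HIST3H2A, from the HIST3 cluster on chromosome 1, was the only tested member called lower. It had 17.5, 12.1 and 11.7 CPM in ITC and 17.1, 20.2 and 22.6 CPM in vehicle. The first ITC library lay just above the lowest vehicle library, so the groups overlapped, and the log2 fold change was −0.54 ± 0.20 (SE, edgeR adjusted p = 0.0418). The call was lost in 5 of 12 alternatives: DESeq2, and leaving out vehicle library 2, vehicle library 3, ITC library 2 or ITC library 3, with adjusted p up to 0.176. HIST1H2AG, with 3.82, 5.83 and 5.02 CPM in ITC and 6.77, 8.44 and 5.91 CPM in vehicle, was not called at −0.52 ± 0.24 (SE, edgeR adjusted p = 0.108), although its groups were apart. HIST1H2AI was not called either, at 0.43 ± 0.52 (SE).

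The 2 H2A genes called higher were low in counts. HIST1H2AH had 16, 22 and 23 counts in ITC and 6, 8 and 1 in vehicle, a log2 fold change of 2.39 ± 0.67 (SE, edgeR adjusted p = 0.0107). HIST2H2AA3 had 12, 12 and 15 counts in ITC and 4, 3 and 11 in vehicle, with 1.65 ± 0.58 (SE, edgeR adjusted p = 0.0344). In CPM the ITC libraries of both genes were above all vehicle libraries. The call of HIST2H2AA3 was lost in 9 of 11 alternatives. All 100-base windows of HIST2H2AA3 also occur in another histone gene. How the authors' counting divided reads between such copies is not given in the sources used here, so its value is uncertain.

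Linker histone H1 binds the DNA that enters and leaves the nucleosome. HIST1H1C held nearly all H1 counts and had 61.8, 46.1 and 54.0 CPM in ITC, against 19.3, 24.6 and 37.5 CPM in vehicle. Its log2 fold change was 0.99 ± 0.22 (SE, edgeR adjusted p = 0.00222), and the highest vehicle library was still under the lowest ITC library. HIST1H1E, at no more than 1.07 CPM in any library, was at −1.04 ± 0.63 (SE, edgeR adjusted p = 0.209). The other 4 H1 genes were not tested, and the class sum was 55.5 ± 7.25 CPM in ITC and 28.6 ± 8.92 CPM in vehicle (SD, n = 3 each).

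H3 and H4 form the central tetramer of the nucleosome. Of 2 tested H3 genes 1 was called higher (50%), and of 5 tested H4 genes 1 (20%). Over all tested genes 20.4% were called higher. HIST1H3E had 14.0, 16.4 and 14.9 CPM in ITC and 10.2, 7.49 and 7.31 CPM in vehicle, a log2 fold change of 0.86 ± 0.19 (SE, edgeR adjusted p = 0.00271). HIST1H4I had 35.2, 24.6 and 29.4 CPM in ITC and 13.2, 17.2 and 15.3 CPM in vehicle, with 0.96 ± 0.18 (SE, edgeR adjusted p = 0.000645). Neither gene had overlapping groups. The row of HIST1H4I lies within the RefSeq span of HIST1H2BK on the opposite strand, a limit given further below. HIST1H4H, the second H4 gene by level, had 14.4, 12.5 and 13.6 CPM in ITC and 7.01, 6.87 and 13.2 CPM in vehicle, and was not called at 0.57 ± 0.24 (SE, edgeR adjusted p = 0.0773). As with HIST1H2AC, vehicle library 3 was the one near the ITC libraries. Without it the edgeR adjusted p was 0.00144 at a log2 fold change of 0.91. Vehicle library 3 was again picked for its value, so the fit without it does not decide the call. Neither HIST1H4H nor HIST1H2AC passed the threshold with any other single library left out. The log2 fold changes of HIST1H4E, HIST4H4 and HIST1H4K, none of them called, were 0.74, 0.57 and −0.37, and that of HIST1H3H, also not called, was 0.16.

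**Figure D3:**
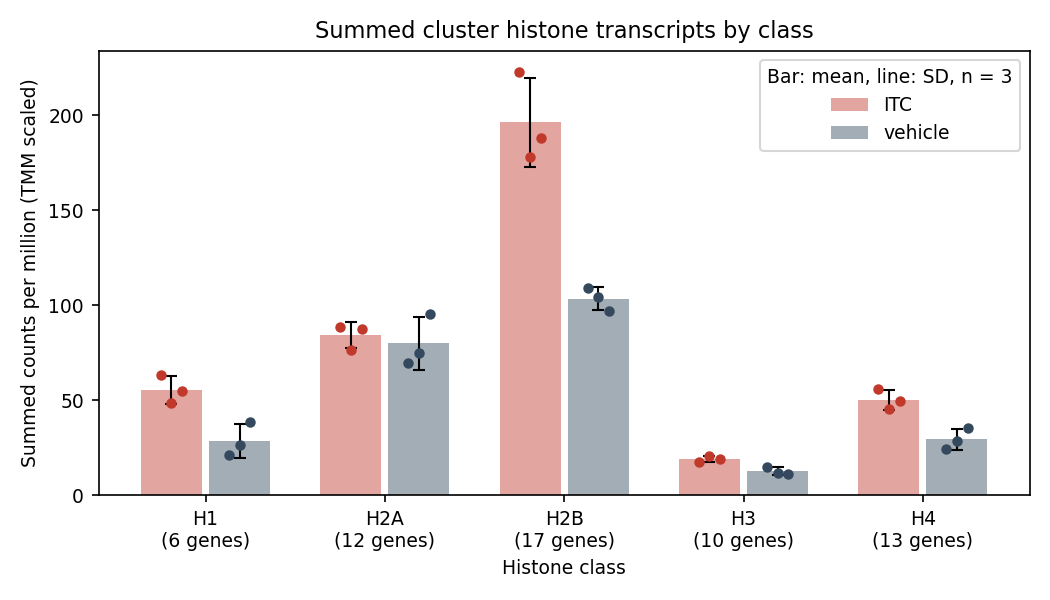
Summed TMM-scaled level (CPM) of all members of each histone class, with ITC left of vehicle, 1 point per library, bars at the mean and lines for the SD (n = 3 each). ITC means are above vehicle means in H1, H2B, H3 and H4, and for H2A the values are 84.2 in ITC and 79.9 in vehicle.

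The summed level was 19.1 ± 1.63 CPM in ITC and 12.6 ± 2.08 CPM in vehicle for H3, and 50.4 ± 5.25 CPM in ITC and 29.4 ± 5.56 CPM in vehicle for H4 (SD, n = 3 each). With TMM, in each of H1, H2B, H3 and H4 the lowest ITC library was above the highest vehicle library, whereas in H2A the libraries overlapped. For H3 this rests on the scaling. H3 genes had 287 of 18623454 counts in ITC library 1 and a larger share, 324 of 20203844, in vehicle library 1. The H3 sum was mostly HIST1H3E, which averaged 15.1 CPM in ITC and 8.32 CPM in vehicle. By cluster, the ratio of mean sums, ITC over vehicle, was 1.64 in HIST1, 1.88 in HIST2 and 0.73 in HIST3, and HIST3 rests mainly on HIST3H2A. The 10 members called higher held 69.3% of the members' counts in ITC and 54.7% in vehicle.

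Per base of listed length, HIST1H2BK was again first in both treatments, with the authors' FPKM of 243 ± 48.5 in ITC and 107 ± 6.76 in vehicle (SD, n = 3 each). HIST1H1C followed with 86.7 ± 13.7 FPKM in ITC and 43.0 ± 13.9 in vehicle, and HIST1H2AC came next with 36.2 ± 2.75 FPKM in ITC and 29.9 ± 6.53 in vehicle. The listed lengths of the first 2 are 381 and 642 bases, the coding sequence alone, whereas that of HIST1H2AC is 1668 bases. FPKM levels of these genes are therefore set on unlike stretches of RNA, and the order between genes depends on the annotation. The change between treatments does not use the length.

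Grouped by annotation, 4 of the 23 members listed by coding sequence alone were tested and 3 of them were called higher (HIST1H1C, HIST1H2AH and HIST1H2BK), with a summed level of 149 ± 22.8 CPM in ITC and 71.1 ± 7.56 CPM in vehicle (SD, n = 3 each). Of the 21 members that run 100 or more bases past the stem-loop, 17 were tested, 5 called higher and 1 lower, with 228 ± 15.4 CPM in ITC and 163 ± 11.3 CPM in vehicle. Of the 9 that end sooner, 4 were tested and 2 called higher (HIST1H2BD and HIST2H2AA3). HIST1H2BD also has a transcript without the pattern, whose end was not part of this grouping. Of the 5 annotated past the coding sequence without the pattern, the 2 tested, HIST1H1E and HIST1H2BJ, were not called. The share called among members that run on past the stem-loop was 35.3%, beside 39.4% of all tested genes, and the other groups hold too few tested members to compare. These groups are of the GENCODE rows. RefSeq gives HIST1H2BK a span of 8566 bases on the genome, from 27138293 to 27146858, where the counted row has 381 bases of exon. That span covers the listed row of HIST1H4I, which is on the opposite strand. The strand setting of the counting is not given, and whether reads of HIST1H2BK were counted for HIST1H4I was not tested. The counts do not show where in a gene the reads lie, so tailed and untailed ends of a gene cannot be told apart.

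RNA without a tail that passes selection was measured beside the members. The 504 rows of small nuclear, nucleolar and Cajal body RNAs and of other small RNAs made without a tail took 0.00504%, 0.00839% and 0.0163% of counts in ITC and 0.00780%, 0.0173% and 0.0235% in vehicle. Their mean share was lower in ITC (0.00992 ± 0.00580%) than in vehicle (0.0162 ± 0.00792%, SD, n = 3 each), and the groups overlapped, whereas the cluster histone share was higher in ITC in every library. Mitochondrial genes took 3.07 ± 0.397% of counts in ITC and 4.19 ± 0.739% in vehicle. Their part in the histone values was not tested.

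Many cluster genes lie head to head, usually an H2A and an H2B gene sharing the short stretch between their starts. Among the members, 9 such pairs are less than 1000 bases apart in GRCh38. HIST1H2BK and HIST1H2AH, 330 bases apart on chromosome 6, were both called higher. HIST1H2BC and HIST1H2AC are 218 bases apart, and HIST1H2BC was called at 1.27 whereas HIST1H2AC was not at 0.26. HIST1H2BG was likewise called at 0.89, while HIST1H2AE, 282 bases away, was not at 0.31. HIST2H2BE had 3062 counts in ITC and 2203 in vehicle, yet HIST2H2AC, 322 bases away, had 15 in ITC and 20 in vehicle and was not tested. HIST3H2A was called lower, and HIST3H2BB, 233 bases away, was at 0.85 without a call. The difference within a pair was not tested.

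The promoters of genes that lead these results are shown because the members share short elements there. They come from RefSeq (GRCh38.p14), 250 bases before to 50 after the annotated start, 5′ to 3′ on the strand of the gene: HIST1H2BK at chr6:27146809-27147108 (minus), HIST2H2BE at chr1:149886633-149886932 (minus), HIST1H4I at chr6:27139032-27139331 (plus) and HIST3H2A at chr1:228457824-228458123 (minus). Capitals mark matches on either strand to the TATA box TATAAA, to the sequence CCAAT, to the octamer ATTTGCAT, to the E2F-type sequences TTTGGCGC and TTTCGCGC, and to the NF-kappa-B consensus, where neighbouring matches can run together.
HIST1H2BK: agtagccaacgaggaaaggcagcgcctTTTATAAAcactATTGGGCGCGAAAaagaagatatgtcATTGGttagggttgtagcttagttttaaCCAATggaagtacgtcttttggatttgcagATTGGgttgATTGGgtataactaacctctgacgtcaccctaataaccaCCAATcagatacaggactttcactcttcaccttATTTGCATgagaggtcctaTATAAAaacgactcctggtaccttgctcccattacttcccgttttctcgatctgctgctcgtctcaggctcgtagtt
HIST2H2BE: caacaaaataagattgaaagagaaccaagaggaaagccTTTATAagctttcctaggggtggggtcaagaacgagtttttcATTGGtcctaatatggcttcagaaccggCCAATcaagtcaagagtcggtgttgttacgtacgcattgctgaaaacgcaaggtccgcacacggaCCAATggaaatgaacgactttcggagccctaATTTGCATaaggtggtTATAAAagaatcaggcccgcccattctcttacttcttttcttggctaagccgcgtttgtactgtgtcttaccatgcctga
HIST1H4I: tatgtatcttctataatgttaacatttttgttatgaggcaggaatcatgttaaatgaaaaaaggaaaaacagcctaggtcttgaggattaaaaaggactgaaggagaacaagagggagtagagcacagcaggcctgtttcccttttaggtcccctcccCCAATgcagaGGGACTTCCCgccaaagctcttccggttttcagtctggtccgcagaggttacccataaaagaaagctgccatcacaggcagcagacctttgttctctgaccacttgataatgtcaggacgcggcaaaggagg
HIST3H2A: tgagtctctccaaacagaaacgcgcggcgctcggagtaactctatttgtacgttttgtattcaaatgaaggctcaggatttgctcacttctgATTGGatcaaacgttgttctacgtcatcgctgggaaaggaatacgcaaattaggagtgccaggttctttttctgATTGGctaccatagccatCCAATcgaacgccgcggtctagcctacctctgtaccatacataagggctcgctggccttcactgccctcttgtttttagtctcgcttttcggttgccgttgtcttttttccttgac
The RefSeq start of HIST1H2BK lies beyond the end of the listed coding row, and that of HIST1H4I lies inside its listed transcript. HIST1H2BK and HIST2H2BE each have the octamer shortly before a TATA box, the arrangement known from H2B genes and bound by the octamer factor OCT1. HIST1H4I has a match to the NF-kappa-B consensus and 1 CCAAT in this window. HIST3H2A has CCAAT matches and no match to the other sequences.

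A promoter was found for 49 of the 58 members, among them 8 of the 10 called higher. CCAAT, the sequence read by NF-Y, was in 40 of the 49 (81.6%), beside 35.7% of all 27305 promoters of the same length, and in all 8 of those called higher that had a promoter. TATAAA was in 31 (63.3%) beside 12%, the octamer in 20 (40.8%) beside 1.8%, and TTTCGCGC in 10 (20.4%) beside 0.546%. The octamer was in 13 of 17 H2B promoters, and in 4 of the 8 called higher (HIST1H2BK, HIST2H2BE, HIST1H2BC and HIST1H2BG). TTTGGCGC was in 0 members, beside 0.659% of all promoters. The NF-kappa-B consensus was in 3 members (6.12%) beside 5.72% of all promoters. It is named here because tumor necrosis factor and interleukin 1 act through that factor. The members with it were HIST1H4I, called higher, HIST1H4K, not called at a log2 fold change of −0.37, and an untested H4 gene. A match is a run of letters only, and binding was not measured.

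S phase genes, measured in the same libraries, were mostly called lower in ITC, beside 19% of all tested genes. Of the 20 listed, 17 were called lower and 3 were not called, all with a log2 fold change below 0, with a median log2 fold change of −1.40 and a summed level of 407 to 425 CPM in ITC and 869 to 991 CPM in vehicle. E2F1, a transcription factor of the entry into S phase, averaged 2.04 ± 0.0715 CPM in ITC and 32.0 ± 6.78 CPM in vehicle (SD, n = 3 each), with a log2 fold change of −3.97 ± 0.22 (SE). RRM2, the regulated subunit of ribonucleotide reductase, was at −5.86 ± 0.44 (SE), GINS2, part of the replicative helicase, at −3.39 ± 0.21 (SE), and CDT1, which loads that helicase, at −3.12 ± 0.24 (SE). RPA2 and CDK2 were among those not called, at −0.40 and −0.07. In bulk RNA, fewer cells of a kind and less RNA per cell cannot be told apart, for the S phase genes as for the histones.

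**Figure D4:**
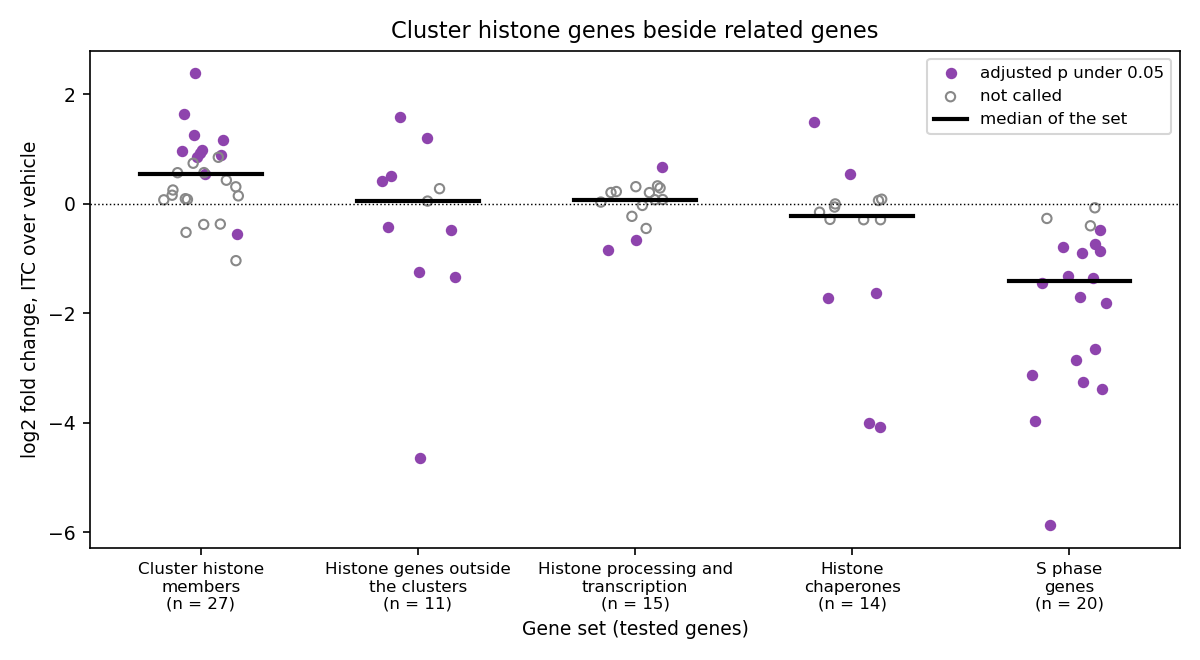
Log2 fold change of ITC over vehicle for each tested gene of the cluster histones and of 4 related lists, 1 point per gene, filled where the adjusted p was under 0.05, with a line at the median. The median is 0.54 for the 27 cluster histone genes and −1.40 for the 20 S phase genes, where 17 filled points lie below 0.

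Histone genes outside the clusters mostly give tailed transcripts, many of them spliced, that are made through the cell cycle, and H2AFX can also end at a stem-loop. Of 11 tested, 4 were called higher, 5 lower and 2 not called, with a median of 0.05, beside 20.4% of all tested genes called higher and 19% lower. H1F0, the linker histone of resting and differentiated cells, had 155, 152 and 142 CPM in ITC and 56.9, 50.7 and 42.7 CPM in vehicle, a log2 fold change of 1.58 ± 0.16 (SE). H2AFJ, an H2A variant, was at 1.21 ± 0.18 (SE). H2AFX, the H2A form phosphorylated at DNA breaks, was lower at −1.32 ± 0.18 (SE), and CENPA, the H3 form of centromeres, at −4.64 ± 0.42 (SE). H2AFY and H2AFY2, which encode macroH2A proteins, were not called, at 0.05 and 0.28. Called higher were 2 with library size alone, with upper quartile scaling, and without vehicle library 2, vehicle library 3 or ITC library 2. Called lower were 3 without vehicle library 2 or without any 1 of the ITC libraries.

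Factors that make or process cluster histone RNA mostly did not pass the test: of 15, 1 was called higher, 2 lower and 12 not called, with a median of 0.08. The shares over all tested genes were 20.4% higher and 19% lower. SYMPK, the scaffold of the cleavage complex, had 170, 126 and 111 CPM in ITC and 97.2, 91.0 and 67.5 CPM in vehicle (log2 fold change 0.67 ± 0.19, SE). That call was lost with library size alone, without vehicle library 3 and without ITC library 1. ERI1, an exonuclease that trims the stem-loop end, was lower at −0.66 ± 0.15 (SE), and CASP8AP2, a protein of the histone locus body, at −0.85 ± 0.28 (SE). The number called lower in this list was 4 with library size alone and 1 without ITC library 1. SLBP, named after its value was seen, had 42.8, 43.8 and 51.7 CPM in ITC and 49.3, 52.4 and 60.1 CPM in vehicle, and was not called at −0.23 ± 0.15 (SE, edgeR adjusted p = 0.262).

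Of 14 tested chaperones, which carry histones to DNA, 2 were called higher, 4 lower and 8 not called, with a median of −0.22. Over all tested genes 20.4% were called higher and 19% lower. ASF1B was at a log2 fold change of −4.07 ± 0.29 (SE), HJURP, the chaperone of CENPA, at 1.29 ± 0.476 CPM in ITC and 20.8 ± 0.703 CPM in vehicle (SD, n = 3 each), and CHAF1A, a subunit of the chromatin assembly factor at forks, at a log2 fold change of −1.62 ± 0.20 (SE). DAXX, which deposits H3.3, was higher at 1.495 ± 0.187 (SE), with 141, 111 and 98.1 CPM in ITC and 49.5, 41.5 and 33.5 CPM in vehicle. NAP1L1 and SUPT16H were not called. With library size alone 1 chaperone was called higher and 7 lower, and without vehicle library 2 or vehicle library 3 the number called higher was 1. Of the poly(A) tail enzymes and tail-binding proteins 5 of 10 had a row under the listed symbol. Other symbols of the remaining genes were not searched. Of the 5, 1 was called higher (PABPC1, the cytoplasmic tail-binding protein, at 0.55 ± 0.18, SE) and 4 were not called. The PABPC1 call was lost with upper quartile scaling, with library size alone, and without vehicle library 2, vehicle library 3 or ITC library 2.

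Markers of other cell types were called in either direction, beside 20.4% of all tested genes called higher and 19% lower. The summed levels of the neuron and of the oligodendrocyte lineage markers overlapped between the treatments. Of 10 neural progenitor markers, 9 were called lower and 1 was not called, with summed levels of 1188 to 1471 CPM in ITC and 1926 to 2427 CPM in vehicle. Of the neuron markers, 1 of 9 tested was called higher and 5 lower (1388 to 1610 CPM in ITC and 1299 to 1514 CPM in vehicle), and of the oligodendrocyte lineage markers 3 of 7 higher and 3 lower (487 to 642 CPM in ITC and 596 to 775 CPM in vehicle). Astrocyte markers had 3 called higher and 6 lower, with 4619 to 5760 CPM in ITC and 3468 to 4259 CPM in vehicle. Most of the astrocyte sum came from the 3 called higher, and the median log2 fold change of the 10 was −0.64. In the neuron sum GAP43, the 1 called higher, averaged 1161 CPM in ITC and 335 CPM in vehicle. The median log2 fold change of the 9 tested neuron markers was −1.19. In the oligodendrocyte lineage sum CNP, not called, averaged 460 CPM in ITC and 363 CPM in vehicle. Of the microglial markers only ITGAM had enough counts to be tested and was called higher, at a log2 fold change of 3.26. The microglial markers summed to 1.72 to 2.83 CPM in ITC and 0.603 to 1.05 CPM in vehicle. AIF1 and SPI1 had 0 counts in ITC and 4 each in vehicle, whereas CSF1R had 42 counts in ITC and 16 in vehicle. These genes were untested and were named after their counts were seen. Pluripotent markers summed to 13.2 to 15.3 CPM in ITC and 18.4 to 22.9 CPM in vehicle, mostly DPPA4, with 666 counts in ITC and 1457 in vehicle, which was called lower. ZFP42, untested in the reported fit and named after its counts were seen, went the other way with 48 counts in ITC and 0 in vehicle, and 1 pluripotent marker was called higher with DESeq2, without a filter and in 4 of the 6 fits that left out 1 library. The part of these markers in the histone values was not tested.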

How the data were processed

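Polyadenylated RNA of 6 libraries, 3 ITC and 3 vehicle, was analysed from the authors' deposited table. Its counts per gene are whole numbers that the authors deposited without scaling, per the file headers and values. Its FPKM values are the authors', per the file headers, and within a library they follow the counts per base of listed length, per the values. The scaling between libraries behind the FPKM was not examined. The submitters' processing notes name GRCh38 and DESeq2. Not given in the sources used here are the aligner, the counting program, its strand setting and how it treated reads with several matches. There were 0 columns of other samples and 0 rows naming no gene.

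Groups came from the sample labels. The test was that of edgeR 4.0.16 under R 4.3.3 (filterByExpr, TMM, quasi-likelihood test, no covariates), with Benjamini-Hochberg adjustment over 16756 genes and a threshold of 0.05. An SE is the size of the log2 fold change divided by the square root of F. TMM factors were 0.886 to 0.953 in ITC and 1.069 to 1.099 in vehicle. With 3 libraries per group at 17398921 counts or more, simulated counts of 16756 genes for this comparison gave calls for 73% of 100 genes changed 2-fold and 98% of 100 changed 4-fold, and 12 calls among unchanged genes. Alternatives were DESeq2 1.42.0, upper quartile scaling, library size alone, no filter or at least 1 CPM in 3 libraries, the replicate number as a block, each library left out in turn, and leaving out members with shared exon bases.

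All 58 members had identical coordinates in GENCODE 29, and 9 share over 50% of their 100-base windows with another histone gene (3 tested: HIST1H2AI, HIST1H4K and HIST2H2AA3). In addition 3 tested members share exon bases with another gene (HIST1H2BE, HIST1H2BN and HIST2H2BF). Promoters were matched by Ensembl ID and symbol. Members and lists were chosen with earlier results of these data known. Genes that could be named were the tested members and, from each list, up to 4 called genes by p and up to 2 uncalled genes by CPM, with SLBP, AIF1, SPI1, CSF1R and ZFP42 named outside this rule. Python 3.11.15, pandas 2.3.3 and matplotlib 3.10.9 were used for summaries and figures.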

Additional observations from a re-analysis of the deposited data

Results flagged for a closer look

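The pseudogene HIST2H2BC lies outside the protein-coding rule and so outside the comparisons above, and its row carried a signal that differed between the treatments. It had 8.80, 14.5 and 15.8 CPM in ITC and 6.59, 7.08 and 7.12 CPM in vehicle, a log2 fold change of 0.91 ± 0.23 (SE, edgeR adjusted p = 0.00539). Every ITC library was above every vehicle library, and ITC library 1 was the nearest to vehicle. How reads that also match the H2B genes were counted is not given in the sources used here.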

How the results depend on the processing

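Of the 10 cluster histone genes called higher in ITC, 8 were called under every alternative that tested them, and HIST1H2BD, HIST2H2AA3 and the lower gene HIST3H2A were not. The count called higher was 8 to 12 over all alternatives, and the count called lower was 0 with DESeq2, 2 with upper quartile scaling, library size alone, no filter or the replicate block, and 0 to 2 with 1 library left out. With library size alone 4804 of all genes were called lower and 2282 higher, and with upper quartile scaling 4059 lower and 2662 higher, against 3176 lower and 3423 higher in the reported fit. The members' summed level in vehicle was 275 CPM with library size alone, against 254 CPM with TMM. As an unscaled share of all counts the members held 0.0373 ± 0.00267% in ITC and 0.0275 ± 0.00229% in vehicle (SD, n = 3 each). The ratio of 1.60 between the summed levels thus rests in part on TMM. Some members that were not called changed sign: with library size alone HIST1H2BE was at −0.15, HIST1H2BJ at −0.14, HIST1H2BN at −0.14, HIST1H3H at −0.066 and HIST2H2BF at −0.083, and with upper quartile scaling HIST1H2BE was at −0.066, HIST1H2BJ at −0.056 and HIST1H2BN at −0.048. With 1 library left out HIST1H2BE ranged between −0.13 and 0.28, HIST1H2BJ between −0.31 and 0.28, HIST1H2BN between −0.074 and 0.33, and HIST1H3H between −0.023 and 0.39. HIST1H2AG passed the threshold with upper quartile scaling, library size alone, the replicate block and without vehicle library 3. The cause of these shifts was not tested. Same-numbered libraries deviated with correlations of 0.268, 0.00733 and 0.384 across genes, and differently numbered ones with −0.338 to 0.0697. ITC libraries 1 and 3 thus went most with the vehicle library of their own number, and ITC library 2 did not. No source used here says what the numbers mark, so the reported fit did not pair the libraries. Whether the numbers mark the batches was not tested. The replicate block gave 11 members higher and 2 lower, with 4332 genes higher and 4084 lower in all. Depth limits the 31 untested members, and 20 members held fewer than 30 counts over all libraries.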
